A study of Mus musculus with 18 samples.

Results

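The growth factor genes described here are Areg, Hbegf, Csf1, Csf2, Fgf2, Vegfa, Pdgfa, Pdgfb, Igf1 and Osm. They were taken by gene symbol from both deposited count tables, and all 10 were found among the 46078 genes of each table. Regulatory T cells (Tregs) are CD4+ T cells that carry the transcription factor Foxp3 and restrain immune responses. They were sorted by flow cytometry from male Foxp3(DTR/GFP) mice aged 10 weeks, a strain whose Foxp3 locus also carries a diphtheria toxin receptor and GFP. The strain, sex and age were the same in every group, and the labels describe no toxin treatment. Uninjured spleen gave 6 libraries. Tregs taken 7 days after injury gave 3 libraries each from a cranial bone defect, from quadriceps with volumetric muscle loss, from skin with full-thickness punch wounds and from heart infarcted by ligation of the left coronary artery. Each injured-tissue library pooled cells from 3 mice, while pooling is not stated for spleen. No uninjured bone, muscle, skin or heart was analysed here, so tissue and injury cannot be told apart.

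Tregs are best known for immune suppression, but in damaged tissue they also act on parenchymal and stromal cells through secreted growth factors. Amphiregulin, the product of Areg, is the best studied of these. It is made as a membrane-anchored precursor, shed by the metalloprotease ADAM17, and signals through the epidermal growth factor (EGF) receptor on neighbouring cells, as does heparin-binding EGF, the product of Hbegf. The other genes encode macrophage and granulocyte-macrophage colony stimulating factors (Csf1, Csf2), fibroblast growth factor 2, vascular endothelial growth factor A, the A and B chains of platelet-derived growth factor, insulin-like growth factor 1, and oncostatin M, a cytokine of the interleukin-6 family.

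Total counts ran from 5970346 to 15756884 in spleen, from 8375212 to 13358526 in muscle, skin and heart, and from 11588253 to 22635760 in bone. Foxp3 was present in every group, at 405 ± 40 CPM (counts scaled to a common library size; SD, n = 6) in spleen and at group means of 694 to 790 CPM in the injured tissues, and Cd4 and Cd3e had group means of at least 349 CPM. Library names follow either of 2 styles, called Endo and Tregs after the word they contain. Spleen held 3 libraries of each style, bone and muscle only the Tregs style, skin only the Endo style, and heart 1 Endo (heart 1) and 2 Tregs libraries. The style was a term in every fit, and what it stands for is not given in the sources used here. Levels are CPM after TMM scaling over all 18 libraries, and changes are log2 fold changes ± SE with p-values adjusted by Benjamini and Hochberg over all genes tested in edgeR's quasi-likelihood test. The p-values measure the spread between these libraries. In bulk RNA, fewer cells that express a gene and less RNA per cell cannot be told apart.

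The promoters of Areg and Csf1 are shown because these are the 2 members with a changed level between injured tissues, in opposite directions. Areg (ENSMUSG00000029378, GRCm38 chromosome 5, 91139599 to 91148432, plus strand) and Csf1 (ENSMUSG00000014599, chromosome 3, 107741048 to 107760469, minus strand) are protein-coding. The sequences are the 250 bases before each start site in RefSeq (GRCm38.p6), 5′ to 3′ along the gene, at chr5:91139349-91139598 (plus strand) and chr3:107760470-107760719 (minus strand). Capitals mark matches on either strand to the cyclic AMP response element (the palindrome TGACGTCA or the shorter site TGACG that it contains), to the GC box GGGCGG and to the TATA box TATAAA. The AP-1 motif TGANTCA was searched too and was in neither window.
Areg: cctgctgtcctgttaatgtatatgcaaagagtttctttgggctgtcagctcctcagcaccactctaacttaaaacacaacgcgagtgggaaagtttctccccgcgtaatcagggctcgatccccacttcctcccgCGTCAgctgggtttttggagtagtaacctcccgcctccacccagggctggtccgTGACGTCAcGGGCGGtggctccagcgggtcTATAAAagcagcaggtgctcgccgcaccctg
Csf1: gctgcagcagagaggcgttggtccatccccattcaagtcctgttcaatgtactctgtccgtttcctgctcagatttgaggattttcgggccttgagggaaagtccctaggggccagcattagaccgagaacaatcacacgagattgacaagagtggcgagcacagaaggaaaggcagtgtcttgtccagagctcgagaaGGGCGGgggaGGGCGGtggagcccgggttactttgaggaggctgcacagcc

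The Areg window held TGACGTCA at 61 to 54 bases before the start, a further TGACG match on the opposite strand at 115 to 111, a GC box at 52 to 47 and a TATA box at 31 to 26. Each full TGACGTCA also contains TGACG on both strands. The Csf1 window held GC boxes at 51 to 46 and 41 to 36, and the letters of the other motifs were not in it. Of 32851 RefSeq windows of the same length, 1.55% held the full cyclic AMP response element and 17.8% its shorter site, 32.7% a GC box, 12.4% a TATA box and 6.75% an AP-1 motif. Windows for 7 of the 10 members were in the table, Hbegf, Osm and Pdgfb being the others, and among those 7 TGACGTCA was found only for Areg. Fgf2 and Pdgfa held TGACG without the full site, and the TGANTCA match of the 7 was in the Igf1 window. A match is a description of the sequence, and binding was not measured.

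Areg and Pdgfb rose in Tregs of all 4 injured tissues, Fgf2 fell in all 4, and Csf1 fell in skin and heart. Of the 10 members, 8 passed the low-count filter and were tested in each comparison with spleen, while Csf2 and Pdgfa did not pass. In bone 3 of the 8 members passed an adjusted p of 0.05, against 14.8% of all genes tested. In muscle 4 of 8 passed against 25.5% of all genes, in skin 4 of 8 against 27.8%, and in heart 4 of 8 against 20.3%. The tested members had median log2 fold changes of 0.51, 0.53, 0.89 and -0.04 in bone, muscle, skin and heart, beside medians of 0.01, -0.01, -0.07 and -0.03 over all genes. The 4 comparisons share the same spleen libraries. Small and ribosomal RNA genes held 8.78% to 14.4% of counts in spleen libraries, 3.59% to 4.13% in bone, 3.63% to 4.65% in muscle, and 5.13% to 7.11% in skin. In heart library 1 their share was 10.3%, against 4.83% and 4.89% in the other heart libraries. With these genes left out of the scaling all 15 calls of members against spleen held, and the part of RNA or library quality in the changes was otherwise not tested.

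**Figure D1:**
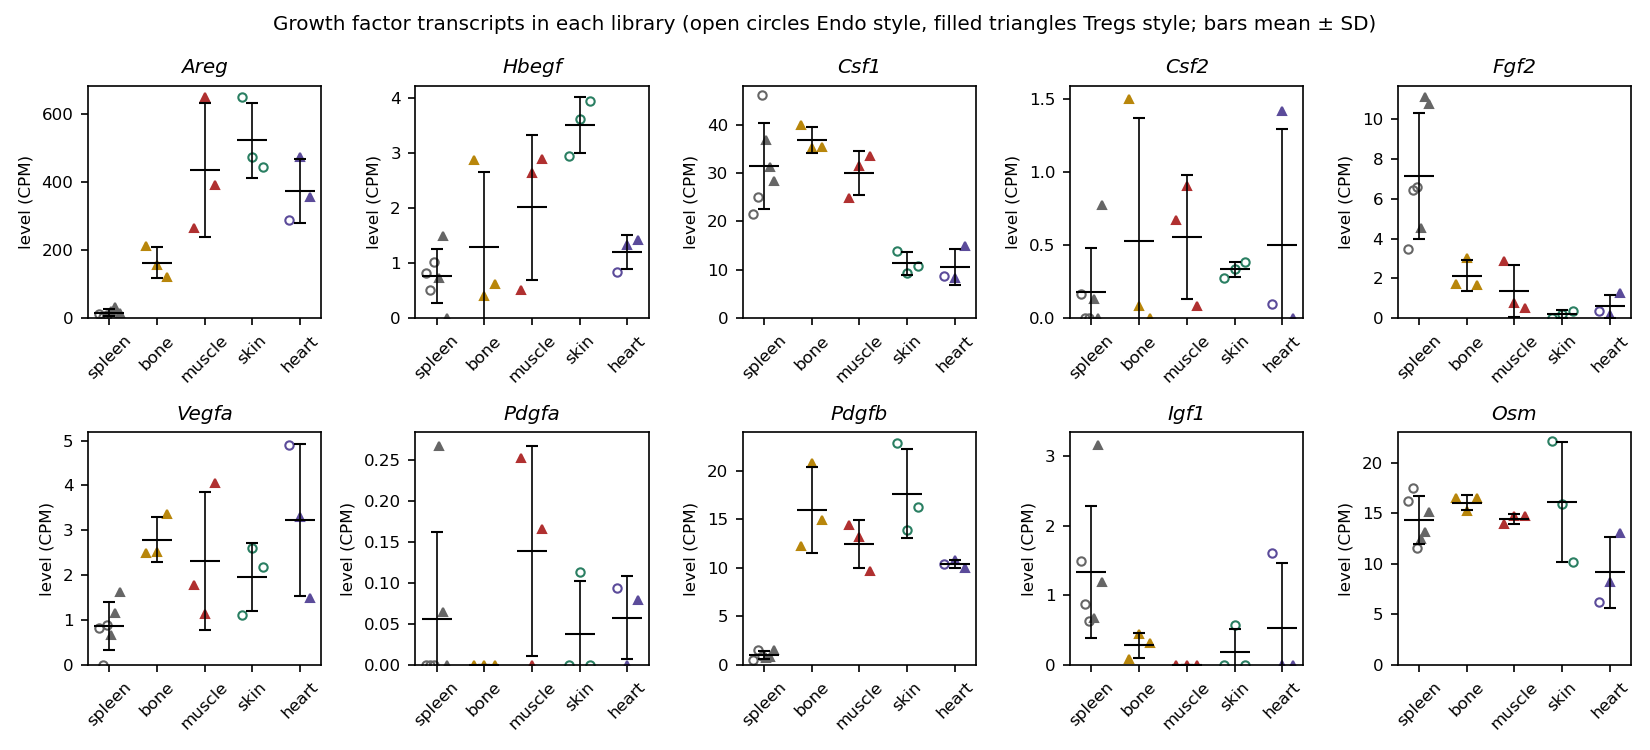
Level of each of the 10 growth factor transcripts (CPM, linear axes starting at 0) in each of the 18 libraries, grouped by tissue; open circles are Endo-style and filled triangles Tregs-style libraries, and bars give the mean ± SD. The Areg and Pdgfb libraries of all 4 injured tissues lie above every spleen library, and those of Fgf2 lie below.

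Among the EGF receptor ligands, Areg was the most abundant. In spleen its level had a lowest value of 3.81, a median of 13.2 and a highest value of 32.7 CPM. Bone libraries held 211, 156 and 121 CPM and muscle libraries 263, 648 and 390.1 CPM. Skin libraries held 648, 472 and 444 CPM and heart libraries 287, 474 and 356 CPM. All 12 injured-tissue libraries were above the highest spleen library, a pattern seen for 12.2%, 14.9%, 18.8% and 13.2% of all genes tested in bone, muscle, skin and heart. The 8 skeletal muscle genes of the marker list summed to 92.1 CPM in muscle library 2, the one with the highest Areg, against 5.22 and 7.70 CPM in the other muscle libraries. Without muscle library 2 the log2 fold change of Areg in muscle was 3.82 and still passed the test, and the part of muscle RNA in the Areg value was not otherwise tested. The bone libraries were also below every library of muscle, skin and heart. The share of all genes with that order was not counted, and Areg did not pass for muscle against bone (edgeR, adjusted p = 0.073). Against spleen, bone had a log2 fold change of 2.82 ± 0.43 for Areg (adjusted p = 8.8e-04) and muscle of 4.24 ± 0.46 (adjusted p = 3.3e-05). Skin had 5.93 ± 0.52 (adjusted p = 4.0e-06), and heart had 4.53 ± 0.33 (adjusted p = 7.9e-06).

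Within spleen, Areg was lower in the libraries of the Endo style. These held 8.35 ± 4.1 CPM and those of the Tregs style 22.8 ± 9.2 CPM (SD, n = 3 each), without overlap. The share of all genes with that order was not counted, and the difference between the styles was not tested. Against only spleen libraries of the same style, the log2 fold changes of Areg were 2.84, 4.25, 5.93 and 4.18 in bone, muscle, skin and heart, with adjusted p-values of 0.0066, 7.4e-04, 2.0e-06 and 5.7e-05. With the style left out of the model the skin value was 5.00 and the bone value 3.32. Group 2 innate lymphoid cells, mast cells and basophils can also make amphiregulin. The 7 genes of the list for innate lymphoid and natural killer cells summed to 3.99 to 10.8 CPM in spleen libraries, to between 5.05 and 13.1 CPM over bone, muscle and skin libraries, and to 23.6 to 62.1 CPM in heart libraries. The heart sum was led by Calca (25.4 ± 24.0 CPM), and its part in the heart value of Areg was not tested. In skin that sum was 8.22 to 8.81 CPM, within the spleen range. Calca alone had means of 0.0223 CPM in spleen and of 1.29, 2.47 and 2.39 CPM in bone, muscle and skin. Of the other 6 genes, Il13 led in bone and heart, with means of 3.13 and 10.3 CPM. Eomes led them in spleen and muscle (4.23 and 2.98 CPM) and Klrb1c in skin (1.69 CPM). The part of innate lymphoid cells in the Areg values of bone, muscle and skin was not tested. Of the 8 mast cell and basophil genes 6 or 7 had no count in each injured tissue, and Hdc, their highest, was at most 2.05 CPM in any group mean.

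Hbegf, on chromosome 18, was far less abundant. The 6 spleen libraries ran from 0 to 1.49 CPM with a median of 0.782. Skin libraries held 2.96, 3.61 and 3.96 CPM, all above spleen. Bone libraries held 2.87, 0.399 and 0.626 CPM, muscle libraries 0.505, 2.64 and 2.90 CPM, and heart libraries 0.848, 1.34 and 1.42 CPM, and these groups overlapped spleen. No comparison passed the test. In skin the log2 fold change was 2.11 ± 1.05 (edgeR, unadjusted p = 0.058, adjusted p = 0.15). Its approximate 95% interval, from 0.04 to 4.17, is narrower than the test allows. Against only the 3 spleen libraries of the Endo style the log2 fold change was 2.08 (edgeR, adjusted p = 0.0048). With the style left out it was 2.16 (edgeR, adjusted p = 0.0495). In bone the direction rested on bone library 1: the log2 fold change was 0.79 ± 0.99 with it and -0.57 without it.

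Pdgfb (ENSMUSG00000000489, chromosome 15, 79995874 to 80014977) encodes the B chain of platelet-derived growth factor, which acts on fibroblasts and pericytes. Spleen libraries ran from 0.497 to 1.56 CPM, with a median of 0.830. Bone libraries held 12.2, 20.8 and 14.9 CPM and muscle libraries 14.4, 13.2 and 9.68 CPM. Skin libraries held 22.8, 13.9 and 16.2 CPM, and heart libraries 10.4, 10.8 and 9.99 CPM. The lowest injured-tissue library was above the highest spleen library in all 4 tissues, and the injured tissues overlapped with each other except that heart was below bone and below skin. The share of all genes with that order of tissues was not counted, and Pdgfb passed in no pair of injured tissues. Against spleen, Pdgfb rose on the log2 scale by 4.01 ± 0.40 in bone (16.1-fold, adjusted p = 2.1e-07) and by 3.65 ± 0.40 in muscle (12.5-fold, adjusted p = 3.1e-07). It rose by 4.15 ± 0.44 in skin (17.7-fold, adjusted p = 1.2e-07) and by 3.39 ± 0.41 in heart (10.5-fold, adjusted p = 5.8e-05). Megakaryocytes and platelets are a known source of this chain. The 6 genes of their list summed to 2.32 to 7.24 CPM in spleen and to at most 3.35 CPM in any injured-tissue library, and 5 of the 6 had no count in muscle, Pf4 and Ppbp among them. Mir7213, which lies within Pdgfb, had 1 count in all 18 libraries together.

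Pdgfa, which encodes the A chain, had at most 4 counts in any library and none in bone, where the limit allowed by a count of 0 is 0.0485 CPM over the 3 libraries. A fall was not detectable at this depth. With no filter on low counts edgeR gave log2 fold changes against spleen from -3.62 ± 2.13 in bone to 2.26 ± 2.64 in skin, and none passed (adjusted p from 0.33 to 1).

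Fgf2 (ENSMUSG00000037225, chromosome 3, 37348346 to 37410108) encodes a mitogen of fibroblasts and endothelial cells. In spleen its level had a lowest value of 3.48, a median of 6.50 and a highest value of 11.1 CPM. Bone libraries held 1.71, 3.03 and 1.64 CPM and muscle libraries 2.86, 0.754 and 0.497 CPM. Skin libraries held 0, 0.226 and 0.383 CPM and heart libraries 0.377, 0.157 and 1.26 CPM. Every injured-tissue library was below every spleen library, a pattern seen for 8.49%, 11.7%, 15.1% and 10.0% of all genes tested in bone, muscle, skin and heart. Skin was lowest, with 5 counts in its 3 libraries together. With the naming style in the model, Fgf2 did not pass for skin against bone or against muscle (edgeR, adjusted p = 0.11 and 0.43). Against spleen, Fgf2 fell by 2.06 ± 0.64 on the log2 scale in bone (adjusted p = 0.031) and fell by 2.71 ± 0.67 in muscle (adjusted p = 0.0041). It fell by 4.82 ± 0.85 in skin (adjusted p = 1.2e-04) and fell by 3.69 ± 0.62 in heart (adjusted p = 7.5e-04). The bone call was lost without spleen library 5 or 6 or without bone library 1 or c, with log2 values of -1.85, -1.87, -1.92 and -1.91 and adjusted p-values of 0.11, 0.095, 0.105 and 0.096. Fgf2 overlaps Nudt6 on the opposite strand, and the strand setting of the counting is not given in the sources used here, so reads of the 2 genes may not be fully separated. Nudt6 had means of 6.15 CPM in spleen and of 6.32, 3.36, 2.18 and 3.58 CPM in bone, muscle, skin and heart.

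**Figure D2:**
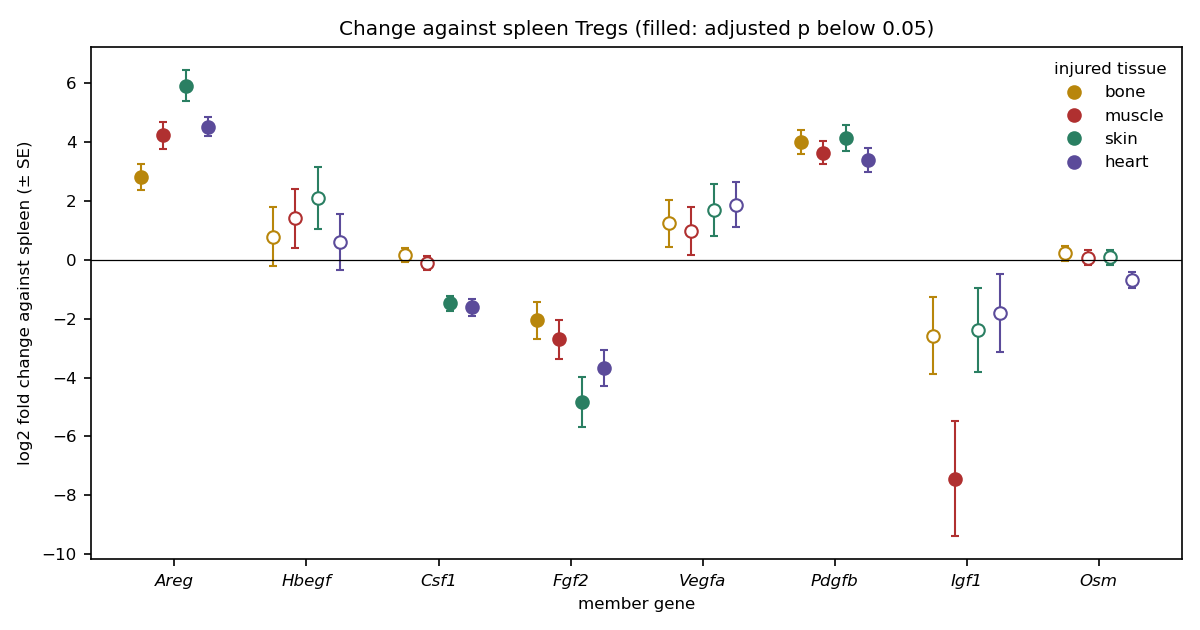
Log2 fold change against spleen (vertical axis, ± SE) of the 8 tested members in bone, muscle, skin and heart; filled points have an adjusted p below 0.05. Areg and Pdgfb are filled and above 0 in all 4 tissues, Fgf2 is filled and below 0 in all 4, and the fitted Igf1 value in muscle, where no reads were counted, has no meaning as a size.

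Csf1, which keeps macrophages alive and drives their proliferation, had lower levels in skin and heart than in bone and muscle. For skin against muscle, which share no naming style, Csf1 did not pass (edgeR, adjusted p = 0.052). Spleen libraries had a lowest value of 21.5, a median of 29.8 and a highest value of 46.1 CPM. Bone libraries held 39.8, 35.2 and 35.4 CPM and muscle libraries 24.9, 31.5 and 33.5 CPM, within the spleen range. Skin libraries held 13.9, 9.26 and 10.7 CPM and heart libraries 8.76, 8.26 and 14.9 CPM, all below the lowest spleen library. Csf1 fell by 1.48 ± 0.25 on the log2 scale in skin (adjusted p = 9.3e-05) and fell by 1.61 ± 0.29 in heart (adjusted p = 0.0012). In bone the log2 fold change was 0.17 with a 95% interval from -0.29 to 0.64 (adjusted p = 0.70), and in muscle it was -0.12 with an interval from -0.58 to 0.35 (adjusted p = 0.77). Within 1 style, heart libraries 2 and 3, which are of the Tregs style, were also below all bone and muscle libraries. The share of all genes with that order was not counted.

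Csf2, whose product acts on granulocytes and macrophages, was low and uneven. It had 36, 2 and 0 counts in the bone libraries and 1, 18 and 0 in the heart libraries. Muscle libraries held 8, 12 and 1 counts, each skin library 3, and spleen libraries between 0 and 11. The groups overlapped, and bone 1, heart 2, muscle 2 and spleen 6 held most of the counts of their groups. Fitted with all 18 libraries, where Csf2 passed the filter, its log2 fold changes against spleen lay between 0.77 ± 1.51 in bone and 2.60 ± 1.92 in skin, with adjusted p-values from 0.35 to 0.81.

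Vegfa, the main inducer of blood vessel growth, ran from 0 to 1.62 CPM in spleen with a median of 0.857. Bone libraries held 2.50, 2.51 and 3.36 CPM, all above spleen, and muscle libraries 1.77, 1.13 and 4.06 CPM. Skin libraries held 1.11, 2.60 and 2.17 CPM and heart libraries 4.90, 3.30 and 1.5 CPM. In each of muscle, skin and heart 2 of 3 libraries were above spleen and the third lay within its range. Bone and muscle had log2 fold changes of 1.25 ± 0.80 and 0.99 ± 0.80, and skin and heart of 1.70 ± 0.88 and 1.87 ± 0.76, none of which passed the test (adjusted p = 0.34, 0.40, 0.16 and 0.099). In heart the adjusted p was 0.047 with DESeq2 and 0.044 with all 18 libraries in 1 fit.

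Osm, an inflammatory cytokine of the interleukin-6 family, did not pass in any comparison with all libraries included. Spleen libraries ran from 11.5 to 17.5 CPM with a median of 14.1. Bone libraries held 16.5, 15.2 and 16.5 CPM, muscle libraries 13.9, 14.7 and 14.7 CPM, skin libraries 22.2, 15.9 and 10.2 CPM and heart libraries 6.22, 8.18 and 13.1 CPM. All groups overlapped spleen, with 2 of the 3 heart libraries below it. The 95% interval of the log2 fold change was -0.28 to 0.72 in bone, -0.43 to 0.58 in muscle and -0.44 to 0.60 in skin, with adjusted p-values of 0.64, 0.87 and 0.86. In heart the value was -0.68 ± 0.28 (adjusted p = 0.11), and -0.98 with an adjusted p of 0.029 without heart library 3.

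Igf1, which supports muscle growth and is made largely by macrophages and stromal cells in wounds, was at or near 0 outside spleen. Spleen libraries ran from 0.633 to 3.16 CPM with a median of 1.03. Bone libraries held 2, 11 and 4 counts, muscle libraries none, skin libraries 0, 5 and 0, and heart libraries 17, 0 and 0. Bone, muscle and skin libraries were all below the lowest spleen library, while heart library 1, at 1.60 CPM, lay within the spleen range. Only muscle passed the test (adjusted p = 0.0071). With the limit set by 3 counts over the 3 muscle libraries (0.0806 CPM), the level in muscle was at least 16.6-fold lower than the spleen mean of 1.34 CPM. In heart the adjusted p was 0.37 with all libraries and 0.018 without heart library 1. In that library the 14 macrophage and monocyte genes other than Ccr2 summed to 118 CPM, against 14.2 and 17.1 CPM in the other heart libraries and 36.7 to 69.4 CPM in spleen, and the part of such cells in the Igf1 value was not tested.

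Compared per kilobase of exon, so that genes of different length can be ordered, Areg led in every group. In spleen it stood at 12.8 ± 8.3 CPM per kilobase, not beyond its spread from Osm (6.30 ± 1.03) and Csf1 (5.97 ± 1.68). Areg made up 47.2% of the summed per-kilobase level of the 10 members in spleen, and 87.1%, 95.5%, 96.6% and 96.7% in bone, muscle, skin and heart. Osm and Csf1 followed in bone (7.07 ± 0.33 and 6.97 ± 0.50) and in muscle (6.36 ± 0.21 and 5.68 ± 0.85) and did not differ beyond their spread. In skin and heart Pdgfb followed Osm at 4.24 ± 1.11 and 2.49 ± 0.09, ahead of Csf1 at 2.14 ± 0.45 and 2.01 ± 0.70 CPM per kilobase, a gap beyond the spread in skin only. Fgf2, next after Csf1 in spleen at 1.05 ± 0.47, was at 0.0299 ± 0.0284 CPM per kilobase in skin.

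The injured tissues were then compared with each other. Areg was higher in skin than in bone by a log2 fold change of 3.11 ± 0.63 (adjusted p = 0.012), and higher in heart than in bone by 1.56 ± 0.43 (adjusted p = 0.045). Csf1 was lower in skin than in bone by a log2 fold change of -1.65 ± 0.35 (adjusted p = 0.0043), lower in heart than in bone by -1.75 ± 0.28 (adjusted p = 9.2e-04) and lower in heart than in muscle by -1.45 ± 0.28 (adjusted p = 0.017). Members passing the test were thus 2 of 8 for skin against bone, where 8.11% of all genes passed, 2 of 9 for heart against bone (6.68%) and 1 of 9 for heart against muscle (0.452%). No member passed for muscle against bone (4.86%), skin against muscle (1.31%) or heart against skin (2.38%) in edgeR after the low-count filter. Without the filter edgeR called Areg in all 3 (log2 fold changes of 1.40, 1.74 and -1.20, adjusted p = 4.8e-15, 1.3e-09 and 3.9e-07) and Csf1 for skin against muscle (-1.31, adjusted p = 0.0043). With the filter the Areg values were nearly the same, at 1.42, 1.69 and -1.21 (edgeR, adjusted p = 0.073, 0.27 and 0.24). The very small p-values for Areg thus came with keeping genes of low count, not with larger differences. With the naming style left out, edgeR called Csf1 for skin against muscle (-1.41, adjusted p = 0.0024) and Fgf2 for skin against bone (-3.43, adjusted p = 0.0078). At an unadjusted p under 0.05 there were 2 members for muscle against bone (Areg and Igf1), 3 for skin against muscle (Areg, Csf1 and Igf1) and 2 for heart against skin (Areg and Osm). With DESeq2 1 member passed for muscle against bone (Areg, adjusted p = 0.022) and 1 for skin against muscle (Csf1, adjusted p = 0.014).

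Skin shares no naming style with bone and muscle, so its differences from them are linked only through spleen. The skin to bone value for Areg was 1.68 with an adjusted p of 0.054 when the style was left out, 3.16 with an adjusted p of 0.077 in limma-voom, and 2.96 with an adjusted p of 0.087 without spleen libraries 1 and 2. Measured levels were 521 ± 110.2 CPM in skin and 162 ± 45 CPM in bone (SD, n = 3). The heart to bone call for Areg was lost in 16 of 26 alternatives, with an adjusted p of up to 0.199 and log2 values from 1.19 to 1.81. Among the libraries left out in turn it was kept without spleen 2, 5 or 6 or muscle 1 or 2, and lost without each of the others. Between heart and muscle the Csf1 call was lost without muscle library 2, muscle library 3 or heart library 2 (adjusted p = 0.053, 0.066 and 0.12). For skin against muscle, Csf1 passed without spleen library 1 or muscle library 1 (log2 fold changes of -1.53 and -1.48, adjusted p = 0.028 and 0.033). Both Csf1 differences from bone kept their call in every alternative. Pdgfb did not pass in any pair of injured tissues, and the widest of its intervals, for skin against muscle, ran from -0.66 to 1.66 on the log2 scale.

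**Figure D3:**
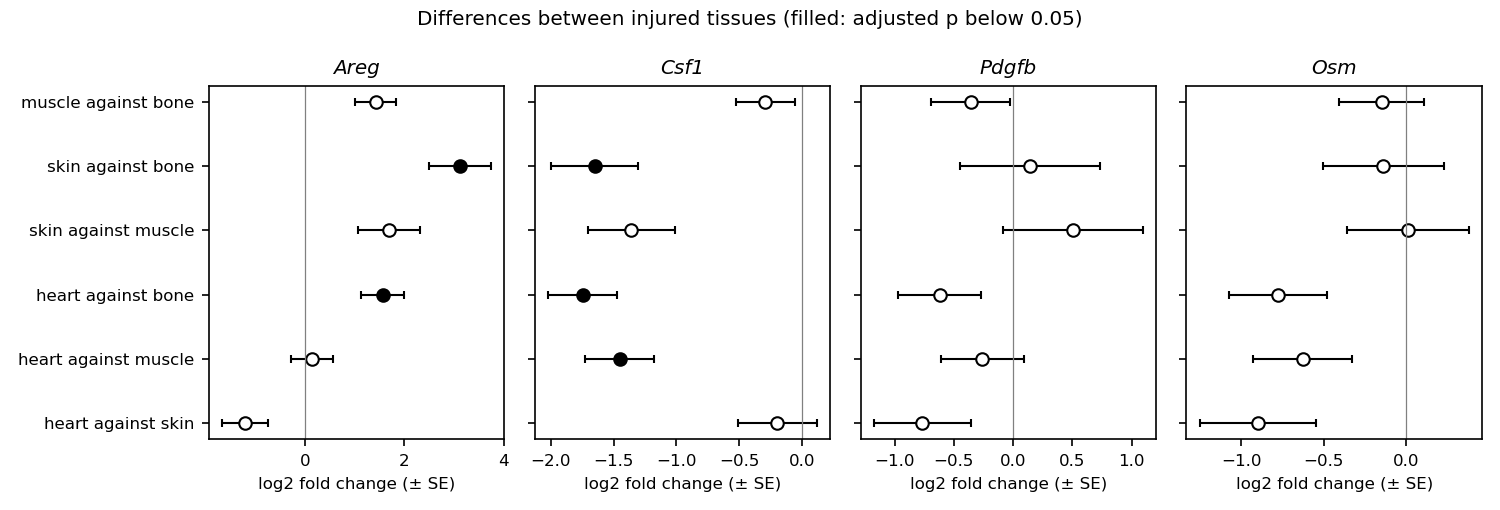
Log2 fold change (horizontal axis, ± SE) of Areg, Csf1, Pdgfb and Osm for each of the 6 pairs of injured tissues; filled points have an adjusted p below 0.05. Areg is filled for skin and heart against bone, and Csf1 for skin against bone, heart against bone and heart against muscle.

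**Figure D4:**
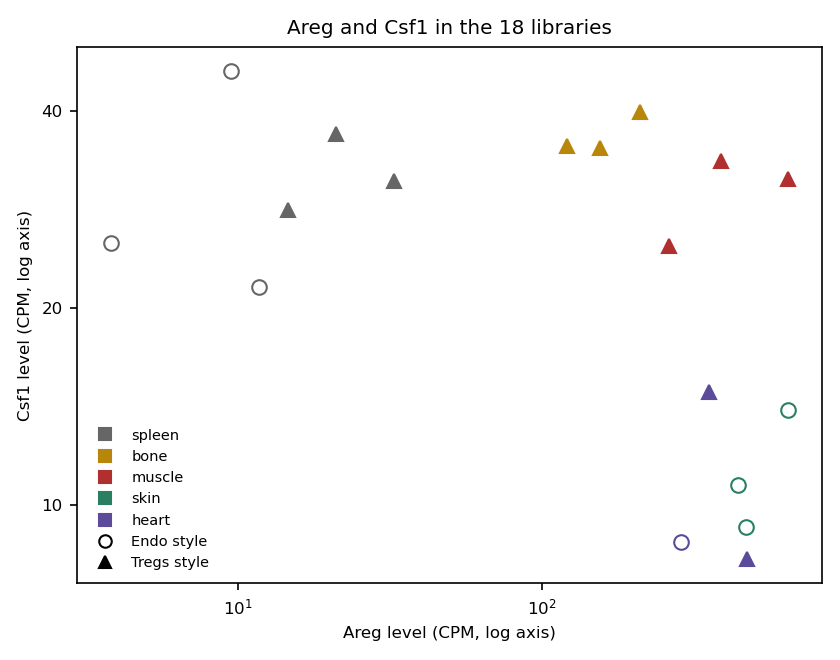
Areg level against Csf1 level in the 18 libraries (CPM, both axes logarithmic), with colour for tissue and symbol for naming style. Bone and muscle lie to the right of spleen at its Csf1 level of 21.5 to 46.1 CPM, and skin and heart lie to the right and below it.

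Levels of pairs of members across libraries are given as descriptions, since all 18 libraries share the contrast of spleen with injured tissue. Areg and Pdgfb had a Pearson correlation of 0.90 over 18 libraries and of -0.07 over the 12 injured-tissue libraries. For Areg and Fgf2 the correlation was -0.87 over 18 and -0.76 over 12 libraries, and for Csf1 and Fgf2 it was 0.65 and 0.70. The genes most like Areg over 18 libraries, among 8776 compared on log2(CPM + 1), were Gem (a small GTPase, r = 0.99), Odc1 (ornithine decarboxylase, 0.98), Cdkn1a (a cell cycle inhibitor, 0.98), Sgms1 (a sphingomyelin synthase, 0.98) and Gadd45b (a stress response gene, 0.98). Over the 12 injured-tissue libraries these values were 0.79, 0.89, 0.74, 0.81 and 0.89. Nearest to Pdgfb were Col18a1 (a collagen, 0.97) and Havcr2 (the checkpoint receptor TIM-3, 0.96), with 0.27 and 0.51 within the injured tissues. Nearest to Fgf2 were Polr3b (a subunit of RNA polymerase III, 0.92) and Synpo (an actin-associated protein, 0.91), and nearest to Csf1 were Aak1 (a kinase of endocytosis, 0.87) and Vwa8 (0.87).

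Other genes of the same pathways were read from lists by role. Of 9 EGF family ligands other than Areg and Hbegf, 4 were tested, and Tgfa, which encodes another ligand of the EGF receptor, rose in all 4 tissues. Its level was 0.116 ± 0.131 CPM in spleen (SD, n = 6), and 2.87 ± 2.53, 3.82 ± 2.52, 3.38 ± 1.73 and 3.45 ± 1.89 CPM in bone, muscle, skin and heart (SD, n = 3 each), with adjusted p-values of 0.0064, 0.0022, 0.010 and 0.0030. Btc, the betacellulin gene, rose 7.55-fold in muscle (adjusted p = 0.0399). It did not pass in bone (3.51-fold, adjusted p = 0.26), skin (0.819-fold, adjusted p = 0.86) or heart (2.03-fold, adjusted p = 0.63), and the tissues were not compared with each other for this gene. Of 12 receptor and shedding genes, 11 were tested in bone, muscle and skin and 9 in heart. There 6, 4, 5 and 2 passed as higher and 1 as lower in each tissue, where 8.48%, 14.2%, 15% and 11.8% of all genes passed as higher and 6.32%, 11.3%, 12.8% and 8.46% as lower. The protease gene Adam8 stood at 10.9 ± 3.4 CPM in spleen and at 99.5 ± 18.1, 192 ± 41, 74.0 ± 29.2 and 102 ± 4 CPM in bone, muscle, skin and heart, and passed as higher in all 4. Adam17, the main amphiregulin sheddase, stood at 89.5 ± 8.3 CPM in spleen and at group means of 107 to 148 CPM in injured tissue, 1.36-fold, 1.62-fold and 1.43-fold higher in bone, muscle and skin, with 1.18-fold not passing in heart (adjusted p = 0.24). The single gene that fell in each tissue was Cd9, a tetraspanin known to associate with EGF receptor ligand precursors, from 34.7 ± 10.1 CPM in spleen to means of 6.24 to 11.6 CPM. Erbb2, a co-receptor, passed as higher in bone and skin, from 0.764 CPM to 6.43 and 3.75 CPM. Egfr itself had means of at most 1.75 CPM and did not pass in bone, muscle or skin, and in heart it did not pass the low-count filter.

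A further list held alarmin receptors and transcription factors chosen as possible inducers of amphiregulin, a role that was not tested here. Of its 10 genes, all tested, 8 rose in bone and 9 in each of muscle, skin and heart, and none fell, where 8.48%, 14.2%, 15% and 11.8% of all genes passed as higher. The medians of the list were 1.11, 1.57, 2.5 and 2.0 on the log2 scale, beside 0.01, -0.01, -0.07 and -0.03 over all genes. The list holds genes that the description of the whole series also followed, and its choice is not independent of these data. Il1rl1, the receptor of the alarmin interleukin-33, rose from 53.6 ± 14.2 CPM in spleen to 654 ± 72, 856 ± 172, 1102 ± 53 and 1664 ± 416 CPM in bone, muscle, skin and heart (adjusted p = 9.3e-12, 1.1e-12, 3.5e-13 and 2.3e-09). Crem, which encodes a factor that binds the cyclic AMP response element, rose 5.08-fold, 7.62-fold, 17.5-fold and 10.5-fold in bone, muscle, skin and heart (adjusted p = 1.2e-08, 1.9e-10, 1.8e-12 and 5.7e-07). Its group means were 42.8 ± 11.7 CPM in spleen and 253, 380, 648 and 457 CPM in those tissues. By group mean, bone was lowest and skin highest among the injured tissues, as for Areg. The heart mean was above that of muscle for Crem. For Areg it was below, at 372 ± 94 CPM against 434 ± 196 CPM (SD, n = 3 each). The fitted Areg log2 fold change for heart against muscle was 0.14 ± 0.42 (edgeR, adjusted p = 0.96), so no order of these 2 tissues was shown. A link between Crem and Areg was not tested.

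Among the processing enzymes listed with PDGF, Pcsk1, a proprotein convertase best known from endocrine cells, rose from 0.429 ± 0.368 CPM in spleen to 87.2 ± 28.8, 93.6 ± 56.9, 115 ± 15 and 132 ± 6 CPM in bone, muscle, skin and heart (adjusted p = 4.2e-07, 1.5e-07, 4.3e-07 and 2.6e-09). Furin, the convertase that matures the PDGF B chain, rose 2.89-fold, 4.05-fold, 3.78-fold and 4.15-fold. With Pdgfb these were the 3 tested genes of 8 in that list, and the receptor genes Pdgfra and Pdgfrb did not pass the low-count filter.

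Of 9 colony stimulating factor genes other than Csf1 and Csf2, 6 were tested. None passed in bone, 1 passed as higher in each other tissue, and those lower were Csf1r and Csf3r in muscle and Csf1r in skin. Il5, an eosinophil growth factor, had no count in spleen and passed as higher in muscle, skin and heart, at 2.80 ± 0.73, 1.28 ± 0.92 and 15.4 ± 2.4 CPM. Csf1r, the receptor of Csf1 and a macrophage marker, fell 13.2-fold in muscle and 3.27-fold in skin from 7.91 ± 2.81 CPM in spleen (adjusted p = 2.5e-04 and 0.042). In heart its level was 7.26 ± 11.8 CPM. Of 15 FGF genes other than Fgf2, 4 were tested, and Fgf16 passed as higher in skin. Fgf13, which encodes an intracellular FGF homologue, fell 5.96-fold, 3.89-fold and 3.54-fold in muscle, skin and heart (adjusted p = 4.4e-04, 0.0043 and 0.0011). Of 9 VEGF ligand and receptor genes other than Vegfa, 5 were tested (4 in heart), and the co-receptor genes Nrp2 in muscle and Nrp1 in skin were the ones that passed, both as lower.

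Of 13 genes of the insulin-like growth factor system other than Igf1, 7 were tested in bone, muscle and skin and 6 in heart, and 3 fell in every tissue, where 6.32%, 11.3%, 12.8% and 8.46% of all genes passed as lower in bone, muscle, skin and heart. These were Igf1r, the receptor, Igf2r, which clears IGF2, and Igfbp4, a binding protein. From 86.8 ± 15.3 CPM in spleen, Igf1r fell 1.84-fold, 6.73-fold, 5.14-fold and 3.34-fold in bone, muscle, skin and heart. Igfbp4 fell from 59.3 ± 21.0 CPM to 3.86 ± 0.73, 1.28 ± 1.01, 0.446 ± 0.502 and 8.23 ± 5.01 CPM (adjusted p = 3.8e-06, 1.2e-07, 8.7e-09 and 9.3e-04). Igfbp7, another binding protein, rose 11.8-fold, 15.3-fold and 16.4-fold in bone, muscle and heart, and its value of 1.99-fold in skin did not pass (adjusted p = 0.34). Igfbp5 also passed as higher in muscle. In the interleukin-6 family, 6 genes other than Osm were tested, and the receptor gene Il6ra fell 1.55-fold, 3.02-fold, 2.49-fold and 2.57-fold from 222 ± 24 CPM. Osmr, the oncostatin M receptor, did not pass the low-count filter.

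**Figure D5:**
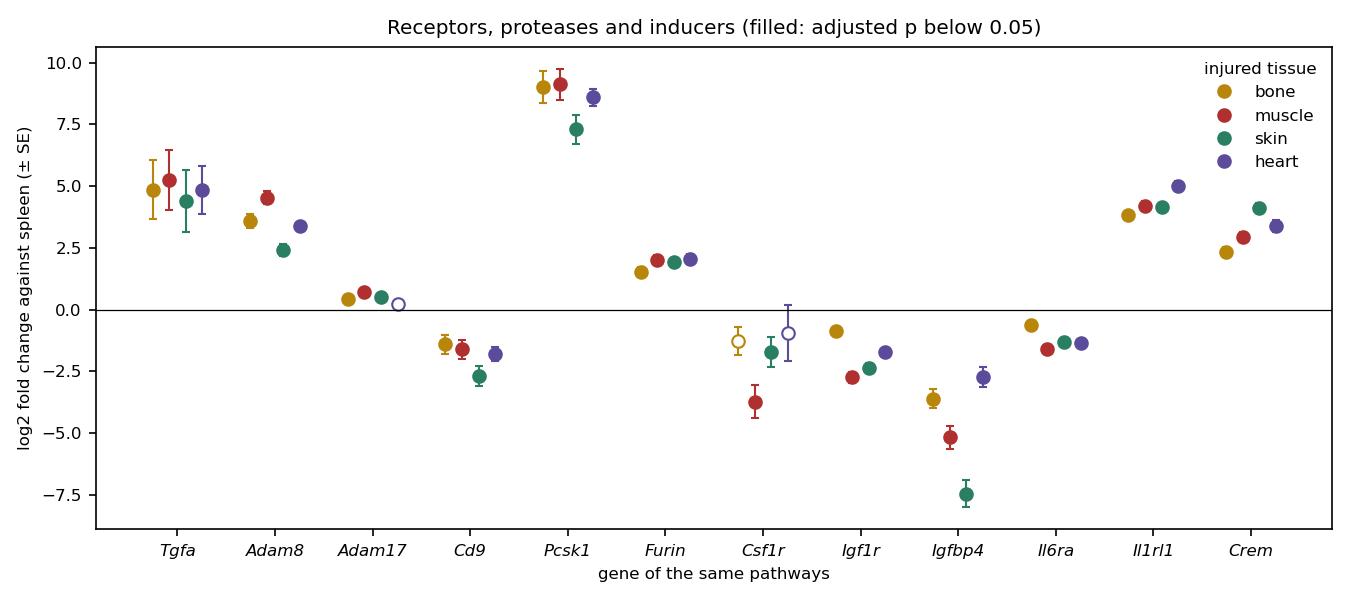
Log2 fold change against spleen (vertical axis, ± SE) of 12 genes of the same pathways in bone, muscle, skin and heart; filled points have an adjusted p below 0.05. Tgfa, Adam8, Pcsk1, Furin, Il1rl1 and Crem are filled and above 0 in all 4 tissues, and Cd9, Igf1r, Igfbp4 and Il6ra are filled and below 0 in all 4.

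Levels of other cell types were measured beside these changes. The macrophage and monocyte list was led by Ccr2, which Tregs also express, at 52.1 ± 19.5 CPM in spleen and 617 to 1400 CPM in injured tissue. Its other 14 genes summed to 30.5 to 40.7 CPM in bone libraries, 15.5 to 27.8 in muscle and 8.77 to 27.8 in skin, beside the spleen and heart values above. B cell genes other than Cd79b summed to 32.0 to 123 CPM in spleen, 46.7 to 68.8 in bone and 9.91 to 53.9 in heart. Fibroblast genes other than Thy1, which T cells express, summed to at most 19.2 CPM in spleen libraries and to between 14.9 and 123 CPM in those of injured tissue. Dendritic cell genes other than Siglech summed to 3.15 to 22.8 CPM in spleen. They were above that range in bone (24.7 to 48.1 CPM), muscle (34.5 to 67.9) and skin (36.9 to 64.8), and at 17.1 to 44.1 CPM in heart. Zbtb46 led them in each injured tissue. In muscle libraries the B cell sum was 3.81 to 6.87 CPM, and in skin libraries 2.86 to 8.92 CPM. The macrophage and B cell sums were thus below the spleen range in muscle as well as in skin. Fgf2 fell in both tissues, whereas Csf1 fell in skin and lay within the spleen range in muscle, and the part of such cells in these changes was not tested.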

How the data were processed

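Raw counts per gene were deposited by the authors in a table for bone, muscle, skin and spleen and another for heart and spleen, with identical spleen columns. Per the submitters' processing notes, reads were handled with STAR, featureCounts and limma on GRCm38. The sources used here give no versions, strand setting or annotation release. Per the labels' protocols, libraries were made with the Ovation Solo kit from 1 ng of RNA. The replicate numbers of the bone libraries named b and c could not be told. The counts were filtered with filterByExpr, scaled by TMM and tested with edgeR 4.0.16 (robust quasi-likelihood, FDR 0.05, naming style as a term): 15 libraries for bone, muscle and skin, 9 for heart against spleen, and 18 for heart against other tissues. The SE comes from the F statistic. Exon lengths and positions come from GENCODE M21. The scripts were tested on simulated data. Alternatives were DESeq2 1.42.0, limma-voom 3.58.1, other scalings and filters, the replicate number, the naming style and each library left out. Named genes were the members, up to 2 highest and 2 lowest genes of each pathway list by mean change among those past the threshold in at least 2 comparisons with spleen, the genes most correlated with each member (5 for Areg, 2 for others), and the highest marker of each list. Other pathway genes were named after their values were seen. The members and lists were chosen with earlier results of these data known.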

Additional observations from a re-analysis of the deposited data

Results flagged for a closer look

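Among the 6 spleen libraries, a single library stood above the others for 3 members by Dixon's criterion. It flags about 1 group in 20 by chance where values are normally distributed. That rate does not apply to counts near 0, as for Csf2 and Pdgfa. Csf2 was at 0.773 CPM in spleen library 6 (11 counts), Pdgfa at 0.268 CPM in spleen library 4 (4 counts) and Igf1 at 3.16 CPM in spleen library 5 (49 counts).

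Effects against spleen differed between tissues for Areg and Csf1 in tests of the difference itself (edgeR). The log2 fold change of Areg was 3.11 for skin against bone and 1.56 for heart against bone. That of Csf1 was -1.65 for skin against bone, -1.75 for heart against bone and -1.45 for heart against muscle.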

How the results depend on the processing

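Of 15 calls of members against spleen, 14 held in every alternative in which the gene was tested, the exception being Fgf2 in bone. Igf1 in muscle was tested in 21 alternatives and the other muscle calls in 26, since it did not pass the low-count filter without spleen library 1, 5 or 6, without spleen libraries 1 and 2 together, or against same-style spleen libraries alone. Of 5 calls between injured tissues, the 2 that held in every alternative were Csf1 in skin and in heart against bone.

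The number of all genes called was 759 for muscle against bone, 1267 for skin against bone, 205 for skin against muscle, 1064 for heart against bone, 72 for heart against muscle and 379 for heart against skin. With the naming style left out, these were 432 for muscle against bone, 2814 for skin against bone, 749 for skin against muscle (1 member, Csf1) and 742 for heart against skin, with 1 member for heart against bone. With DESeq2 they were 1270 for muscle against bone (1 member), 427 for skin against muscle (1 member), 1630 for heart against bone, 211 for heart against muscle and 672 for heart against skin. With limma-voom they were 843 for skin against bone (1 member) and 75 for skin against muscle, with 1 member for heart against bone. With no filter on low counts they were 1191 for muscle against bone (1 member, Areg), 618 for skin against muscle (2 members, Areg and Csf1), 380 for heart against muscle and 909 for heart against skin (1 member, Areg). With all 18 libraries in 1 fit they were 493 for muscle against bone and 115 for skin against muscle. Without spleen libraries 1 and 2 they were 2548 for skin against spleen (4342 with them), 705 for skin against bone (1 member), 126 for skin against muscle (1 member) and 638 for heart against skin, with 1 member for heart against bone. The causes were not tested.

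With 1 library left out at a time, the counts ran from 256 to 1040 for muscle against bone, 777 to 1705 for skin against bone, 101 to 528 for skin against muscle (0 to 1 members), 429 to 1200 for heart against bone (1 to 2 members), 27 to 104 for heart against muscle (0 to 1 members) and 205 to 522 for heart against skin.

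Some values changed sign, and none of them was called. Osm in muscle against spleen was -0.0024 with the style left out and -0.040 in the 18-library fit. Osm in skin against bone was 0.0088 with the style left out, 0.12 in the 18-library fit, 0.27 without spleen libraries 1 and 2 and -0.42 to 0.13 with 1 library left out. Areg in heart against muscle was -0.22 with the style left out and -0.11 to 0.55 with 1 library left out. With 1 library left out, log2 values ran from -0.57 to 1.79 for Hbegf in bone, -0.21 to 0.0053 for Csf1 in muscle, -0.18 to 0.37 for Osm in skin, -0.25 to 0.62 for Pdgfb in skin against bone, -0.26 to 0.29 for Osm in skin against muscle and -2.1 to 0.13 for Fgf2 in heart against muscle.

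Libraries of muscle, skin, heart and Endo-style spleen with the same replicate number in their titles had deviations correlated between -0.125 and 0.158. These title numbers thus gave no sign of pairing. The library names of muscle and heart carry other numbers than their titles, and pairing by those names was not examined. In the fit with a replicate block in place of the style, 1132 genes (1 member, Csf1) were called for skin against muscle and 826 for heart against skin, Osm in muscle against spleen was -0.050 and Areg in heart against muscle was -0.19. No paired analysis was possible for bone because only 1 of its libraries carries a usable number.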

Other observations

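Some genes of the listed pathways not described above were read after their values were seen. Cd44, an adhesion receptor that binds heparin-binding EGF, stood at 240.5 ± 19.7 CPM in spleen and rose to 755 ± 116, 1212 ± 200, 1205 ± 67 and 883 ± 119 CPM in bone, muscle, skin and heart (edgeR, adjusted p = 8.0e-08, 1.8e-10, 4.9e-11 and 5.5e-07). Rhbdf2, a partner of ADAM17, stood at 15.7 ± 2.2 CPM in spleen and rose to 30.2 ± 5.3, 30.2 ± 8.8 and 30.7 ± 3.0 CPM in bone, muscle and skin (edgeR, adjusted p = 0.0039, 0.0025 and 0.0054), while heart was at 17.5 ± 1.3 CPM (adjusted p = 0.64). Whether heart differs from the other tissues in this gene was not tested here. Nrp1, a co-receptor of vascular endothelial growth factor and a surface marker of Tregs, fell 2.11-fold in skin, from 392 ± 93 to 164 ± 9 CPM (adjusted p = 4.8e-05), and did not pass in bone, muscle or heart (adjusted p = 0.71, 0.079 and 0.13). Lif, a cytokine related to oncostatin M, rose 3.05-fold in heart, from 5.10 ± 1.63 to 16.1 ± 2.6 CPM (adjusted p = 0.0019), and did not pass in bone (1.02-fold, adjusted p = 0.97), muscle (1.92-fold, adjusted p = 0.074) or skin (1.87-fold, adjusted p = 0.097). The tissues were not compared with each other for Nrp1 and Lif.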
